A study of Mus musculus with 43 samples.

Results

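The Slc25 family of mitochondrial carriers was described here through 17 genes of the metabolic CRISPR library whose symbols begin with *Slc25a*, each targeted by 5 sgRNAs. Together these were 85 of the 10640 sgRNAs, which cover 2078 genes and hold 250 nontargeting controls. *Slc25a20*, which moves acylcarnitines, was left aside. The 17 genes were picked by symbol.

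The carriers sit in the inner mitochondrial membrane and exchange metabolites, nucleotides, phosphate and cofactors between the cytosol and the matrix. Adenine nucleotide and phosphate carriers feed the ATP synthase, carriers of carboxylates and of aspartate link the TCA cycle to cytosolic biosynthesis and to the exchange of reducing equivalents, and others bring in amino acids or cofactors made outside the organelle. Activated CD8+ T cells enlarge their mitochondria and divide quickly, so the loss of a carrier may in principle be tested by following how cells that carry its sgRNAs fare against cells that carry nontargeting sgRNAs.

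The cells were CD8+ T cells of the OT-I strain, which carries a receptor for an ovalbumin peptide, taken from mice with a constitutive Cas9 knock-in. They were transduced with the lentiviral library, selected by the CD90.1 reporter and injected into the tail vein of mice that carried orthotopic KPC_OVA tumours, a mouse pancreatic cancer line made to express ovalbumin. The recipients carried the Cas9 knock-in as well. Treatment with anti-PD-1 or with control IgG began on the day of transfer, and CD90.1+ cells were sorted 7 days later from the primary tumour, lung, liver, peritoneal metastases, spleen, draining lymph nodes and nondraining lymph nodes. The reference, called T0, was in vitro cells of the day of transfer, which received neither antibody. The sgRNA integrated in genomic DNA was sequenced, so a fall means fewer sgRNA copies relative to controls. Cutting of each target and loss of the protein were not measured. T0 differs from every organ library in both time and environment, and these cannot be told apart.

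Of 43 samples, 41 carried values. The authors had excluded replicate 2 of liver anti-PD-1 and replicate 1 of peritoneal metastases IgG. All groups therefore had 3 libraries, except that peritoneal metastases IgG and liver IgG had 2 and liver anti-PD-1 had 1. The single liver anti-PD-1 library is assumed to vary as the others do. Peritoneal metastases anti-PD-1 replicate 2 was titled as such but its tissue label read spleen. It was kept by its title, and values without it are given where they matter. Values of a library summed to between 1788300 and 4228882. Many sgRNAs sat at a shared lowest value. This was the lowest value of an sgRNA among the libraries of 1 replicate number, held by at least 2 of them, or 0. Such values made up 0 to 0.0188% of sgRNAs in T0, 2.78 to 42.6% outside the lymph nodes and 48.6 to 91.6% in the lymph nodes. For this reason the 12 lymph node libraries were fitted apart from the 26 other organ libraries. Replicates are called biological in the titles, and p-values measure the spread between these libraries only.

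The level of a gene was the mean over its 5 sgRNAs of log2(value + 1) minus the mean of the nontargeting sgRNAs of the same library, so that 0 is the nontargeting level. A change is a difference of such levels in log2(value + 1), so falls of sgRNAs near 0 are understated. A gene was called depleted or enriched at an adjusted p of at most 0.05, by limma with Benjamini-Hochberg adjustment over all genes. As a scale for the changes below, 20 ribosomal protein genes had a median change of −5.35 in the mean of the 10 groups outside the lymph nodes.

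In that mean, 2 of the 17 carriers were depleted and 0 were enriched. The depleted genes were *Slc25a26* and *Slc25a3*, which encode the mitochondrial carriers of S-adenosylmethionine and of phosphate. Depletion was called for 16.1% of all genes and enrichment for 0.192%, so the share of carriers called did not stand above that of the library. The median change was −0.19 over the 17 carriers and −0.14 over all genes. For both depleted carriers, 26 of 26 organ libraries outside the lymph nodes lay below every T0 library, which was so for 14% of all genes. The remaining 15 carriers had changes from −1.12 to 0.58.

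*Slc25a26*, which brings S-adenosylmethionine, the methyl donor made in the cytosol, into the matrix, had T0 levels of −0.53, −0.41 and −0.16. In the primary tumour its levels were −4.95, −3.39 and −3.003 under IgG and −4.76, −4.12 and −4.40 under anti-PD-1. In the spleen they were −5.37, −4.76 and −3.25 under IgG and −3.998, −6.12 and −3.62 under anti-PD-1. Tumour and spleen thus lay well below T0 in each library, with no gap between the treatments. In the lung the levels were −3.76, −5.85 and −1.17 under IgG and −2.99, −4.87 and −3.72 under anti-PD-1. In the liver they were −4.56 and −3.51 under IgG and −5.38 in the only anti-PD-1 library. In peritoneal metastases they were −2.52 and −4.76 under IgG and −5.16, −5.46 and −4.49 under anti-PD-1. Lung IgG replicate 3 was the closest to T0 of the 26 libraries, yet still below it.

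The change of *Slc25a26* in the mean of the 10 groups was −3.91 (SE 0.62, limma adjusted p = 3.5e-06). It was depleted in 10 of 10 comparisons with T0, by changes from −5.01 in liver anti-PD-1 to −3.23 in lung IgG. Leaving out a single library ended the call in liver IgG (without liver IgG replicate 2, change −3.14, limma adjusted p = 0.0945), in lung IgG (without lung IgG replicate 2, −2.10, adjusted p = 0.0792) and in peritoneal metastases IgG (without peritoneal metastases IgG replicate 3, −2.15, adjusted p = 0.375). With the median of the 5 sgRNAs in place of their mean, 1 of the 10 calls was kept, and without the 10% of sgRNAs lowest in T0, a setting chosen after seeing the data, 6 were. Without the library whose tissue label read spleen, the change in peritoneal metastases anti-PD-1 was −4.46.

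*Slc25a3*, the phosphate carrier that supplies inorganic phosphate for ATP synthesis, had T0 levels of 0.02, 0.13 and 0.33. In the primary tumour its levels were −2.94, −3.33 and −3.75 under IgG and −3.91, −5.31 and −3.89 under anti-PD-1. In peritoneal metastases they were −3.59 and −4.10 under IgG and −6.90, −3.15 and −3.06 under anti-PD-1. These organs held some of its lowest values. The difference of anti-PD-1 from IgG in the tumour was −1.03 and was not called (limma adjusted p = 0.9999). In the lung the levels were −2.31, −3.25 and −1.13 under IgG and −4.34, −6.13 and −3.20 under anti-PD-1. In the spleen they were −1.52, −2.33 and −1.44 under IgG and −2.67, −1.12 and −2.46 under anti-PD-1. In the liver they were −2.01 and −1.43 under IgG and −2.78 under anti-PD-1. Spleen and liver thus held milder values than tumour and peritoneal metastases.

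The change of *Slc25a3* in the mean of the 10 groups was −3.27 (SE 0.57, limma adjusted p = 2.1e-05). It was depleted in 7 of 10 comparisons, by up to −4.72 in lung anti-PD-1, and was not called in spleen IgG (−1.93), liver IgG (−1.88) or liver anti-PD-1 (−2.94). The calls in spleen anti-PD-1 (−2.24, limma adjusted p = 0.042) and lung IgG (−2.39, limma adjusted p = 0.023) were lost without any 1 of the T0 libraries, the former also without spleen anti-PD-1 replicate 1 or 3 and the latter without lung IgG replicate 1 or 2. With the median of the sgRNAs the calls in primary tumour IgG (limma adjusted p = 0.12) and spleen anti-PD-1 (adjusted p = 0.91) were lost. Without the library whose tissue label read spleen, the change in peritoneal metastases anti-PD-1 was −5.14.

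The sgRNAs against these genes all had negative changes in the mean of the 10 groups, and 5 of them were depleted on their own. These were the only member sgRNAs called among 85, while 7.52% of all sgRNAs were depleted and 0.0752% enriched. Of the sgRNAs against *Slc25a26*, s_05531 changed by −5.87 (limma adjusted p = 3.4e-08), s_05533 by −4.92 and s_05535 by −3.98, and the uncalled s_05534 and s_05532 had values of −2.52 and −2.27. The sgRNA s_05531 had a mean T0 signal of 140 and a median of 0.1002 over the 26 organ libraries, and it sat at its shared lowest value in 24 of them. It was also the single member sgRNA for which all 26 libraries lay below T0, a pattern seen in 4.26% of all sgRNAs. For *Slc25a3*, s_02597 changed by −4.13 and s_02598 by −3.65, with values of −3.17, −2.72 and −2.68 for the uncalled s_02599, s_02596 and s_02600. The sgRNAs thus differed in size within a gene but not in sign, and neither gene rested on a single one.

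Part of the low values of *Slc25a26* was present at T0, with a mean T0 level of −0.37. Low T0 levels were also held by uncalled carriers. The mean T0 level of *Slc25a12* was −0.42, and s_03318 against *Slc25a14* stood at −0.97. The *Slc25a26* sgRNAs s_05531, s_05535 and s_05534 had T0 levels of −0.92, −0.72 and −0.70, whereas s_05532 stood at −0.22 and s_05533 at 0.72. When the 10% of sgRNAs lowest in T0 were left out, 2 of its 5 sgRNAs remained, and its change was −3.60 (limma adjusted p = 0.00043).

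The adenine nucleotide carriers were not called. *Slc25a5* and *Slc25a4* encode the ADP/ATP translocases Ant2 and Ant1, whose coding sequences were 77.5% identical over 897 bases in RefSeq annotation of GRCm38.p6. The change of *Slc25a5* in the mean of the 10 groups was −0.78 (SE 0.53, limma adjusted p = 0.66), with values below 0 in 10 of 10 comparisons, which share T0 and in which 20.6% of all genes were below 0, and the lowest in spleen IgG (−1.93, limma adjusted p = 0.065, and 0.047 with the replicate number within a treatment as a random block). In spleen IgG its levels were −1.91, −2.52 and −1.04, against 0.01, 0.16 and 0.16 in T0. In that comparison 16.6% of all genes were lower at an unadjusted limma p under 0.05. The mean change of *Slc25a4* was −0.25. Their sgRNAs did not move as 1: those against *Slc25a5* ran from −1.67 to 0.48 and those against *Slc25a4* from −1.54 to 0.62. The library thus held the phosphate carrier as depleted and neither translocase as called. The brain-type uncoupling carriers *Slc25a14* and *Slc25a27* had mean changes of −0.44 and −0.08, also uncalled.

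The 6 carriers of carboxylates and of aspartate had a median change of 0.01 in the mean of the 10 groups, with 0 called. *Slc25a11*, the oxoglutarate carrier of the malate-aspartate shuttle, had the highest change of the 17 carriers (0.58, SE 0.43, limma adjusted p = 0.76). It was called in 0 of the 10 comparisons, which share T0. Its sgRNAs ranged from −0.36 to 1.37. Its partners in the shuttle, the aspartate-glutamate carriers *Slc25a12* and *Slc25a13*, had mean changes of −0.19 and −0.24, and their coding sequences were 70.5% identical. The citrate carrier *Slc25a1* had a mean change of 0.42, the dicarboxylate carrier *Slc25a10* one of −0.04 and the oxodicarboxylate carrier *Slc25a21* one of 0.06. The signs of *Slc25a1*, *Slc25a11* and *Slc25a21* turned negative when values were not centred, as the whole library then moved by a median of −1.14.

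Of the amino acid carriers, the glutamate carrier *Slc25a22* came nearest to a call, with a change of −1.12 in the mean of the 10 groups (SE 0.40, limma adjusted p = 0.051). It lay below all T0 libraries in 24 of 26 organ libraries, and 16.9% of all genes did so in at least 24. The adjusted p passed the threshold in 9 of the 29 fits that left out 1 library, with log2(value + 10) (0.028), with the nontargeting median for centring (0.0044) and with no centring (0.00031), and was 0.50 when lymph nodes shared the fit. Its sgRNAs had changes from −1.73 to −0.58, none called. The other glutamate carrier, *Slc25a18*, 71.3% identical to it in coding sequence, had a change of −0.11. The ornithine carriers *Slc25a2* and *Slc25a15* had changes of −0.42 and 0.11. *Slc25a16*, which has been linked to coenzyme A supply, was the other cofactor carrier described and had a change of −0.06.

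Over single comparisons with T0, the 17 carriers gave 19 depletion calls, of which 10 belonged to *Slc25a26* and 7 to *Slc25a3*. The background over all genes was 14.1%. By comparison, 1 carrier was depleted in each liver group (13.1% of all genes under IgG and 9.58% under anti-PD-1), 1 in spleen IgG (13.6%) and 2 in spleen anti-PD-1 (14%), each tumour group (14.3% under IgG and 14.4% under anti-PD-1) and each peritoneal metastases group (13.7 and 15.3%). In lung IgG there were 2 (16.2%) and in lung anti-PD-1 4 (17.2%). No carrier was enriched in these groups outside lung IgG, where all genes gave 0.192 and 0.289% in the liver, 0.289 and 0.433% in the spleen, 0 and 0.144% in the tumour and 0.0481 and 0.144% in peritoneal metastases under IgG and anti-PD-1, and 0.962% in lung anti-PD-1. The other depletion calls and the only enrichment call (background 0.419%) were in the lung. There, *Slc25a22* changed by −2.78 under anti-PD-1 (limma adjusted p = 8.6e-05) and *Slc25a13* by −1.70 under anti-PD-1 (limma adjusted p = 0.047). The sgRNAs against *Slc25a13* were not of 1 sign there, from −4.89 for s_04201 to 1.62 for s_04202. Its call was lost in 7 of 12 alternative settings. *Slc25a1* was enriched under IgG by 2.13 (limma adjusted p = 0.0067), with 1.68% of genes enriched. The size of this change depended on the centring. It was 0.94 with the nontargeting median for centring (limma adjusted p = 0.20) and 0.20 with no centring (limma adjusted p = 0.78), neither called. The call of *Slc25a13* was lost in 16 of 29 fits that left out 1 library, among them each fit without a T0 library and those without lung anti-PD-1 replicate 2 or 3. When all 41 libraries shared the fit, *Slc25a13* (limma adjusted p = 0.36) and *Slc25a1* (limma adjusted p = 0.063) were no longer called, while *Slc25a22* was (limma adjusted p = 0.014).

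Lung libraries held many sgRNAs at the shared lowest value, with shares of 42.6, 28 and 11.4% in lung IgG and 17.8, 30.2 and 10.6% in lung anti-PD-1. These overlapped with the spleen (up to 24.1%) and peritoneal metastases (up to 19.3%). Of the 250 nontargeting sgRNAs, 5 were called depleted and 2 enriched in lung IgG, and 4 depleted in lung anti-PD-1, whereas 1 was called in liver IgG and 0 in the other comparisons with T0. In log2(value + 1), the nontargeting mean, used for centring, was 5.60, 6.37 and 6.24 in lung IgG, against nontargeting medians of 7.48, 7.60 and 6.70. In lung anti-PD-1 the means were 6.92, 6.64 and 6.32 and the medians 7.59, 7.70 and 7.07. When shared lowest values were set to 0, the lung anti-PD-1 call of *Slc25a13* was lost (−1.76, limma adjusted p = 0.061). It was also lost with log2(value + 10) (limma adjusted p = 0.14). The lung calls of *Slc25a1* and *Slc25a22* were kept with shared lowest values at 0. Beyond such settings, the part of the shared lowest values in the lung results of the carriers was not tested.

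The comparison of anti-PD-1 with IgG asked whether checkpoint treatment altered the loss of carriers. It gave 2 calls over 5 organs, both lower under anti-PD-1 in the lung, where 2.36% of all genes were lower and 1.2% higher. *Slc25a1* had lung levels of 2.79, 2.11 and 2.11 under IgG and 0.95, −1.39 and −1.30 under anti-PD-1, against 0.11, 0.28 and 0.23 in T0. The difference of anti-PD-1 from IgG was −2.92 (SE 0.58, limma adjusted p = 0.0058). By sgRNA, the difference was −4.13 for s_01088, −4.06 for s_01089, −3.90 for s_01087, −1.44 for s_01090 and −1.06 for s_01086, with s_01088 and s_01089 called (limma adjusted p = 0.033 and 0.038).

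*Slc25a22* had lung levels of 0.06, −1.40 and −0.21 under IgG and −2.35, −2.37 and −2.99 under anti-PD-1. The difference was −2.06 (SE 0.53, limma adjusted p = 0.026). Its sgRNAs were not of 1 sign, with differences of −5.58 for s_05730, the only one called (limma adjusted p = 0.010), −3.999 for s_05728, −3.38 for s_05727, 0.89 for s_05729 and 1.79 for s_05726. The call was lost without lung IgG replicate 1 (−1.77, limma adjusted p = 0.081) or lung anti-PD-1 replicate 3 (−1.85, adjusted p = 0.066). When all 41 libraries shared the fit, neither gene was called (limma adjusted p = 0.16 for *Slc25a1* and 0.41 for *Slc25a22*), and neither was with no centring (0.066 and 0.18). The call of *Slc25a1* was also lost with the median of the sgRNAs (0.056), and that of *Slc25a22* with log2(value + 10) (0.052) and with the nontargeting median for centring (0.093).

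In the other 4 organs 0 carriers and 0 genes of the library passed the threshold between treatments. At an unadjusted p under 0.05, 1 carrier was lower and 1 higher under anti-PD-1 in the spleen (4.38 and 3.37% of all genes), 1 was higher in peritoneal metastases (3.13%), and 0 in the primary tumour and liver. In the mean over the organs 0 carriers were called, with 0.481% of genes lower and 0.866% higher. At an unadjusted p under 0.05, 3 were lower there (*Slc25a1*, *Slc25a3* and *Slc25a22*) and 2 higher (*Slc25a15* and *Slc25a2*), against 6.79 and 9.05% of all genes. The test of whether the treatment difference itself varied between organs found 0 carriers and 0 of 2078 genes (limma adjusted p of 0.80 for *Slc25a1*), with 1 carrier, *Slc25a1*, and 4.96% of all genes at an unadjusted p under 0.05.

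Between the organs outside the lymph nodes, 0 of 17 carriers differed by limma's moderated F-test, against 0.433% of all genes. At an unadjusted p under 0.05 there were 2, *Slc25a3* (limma adjusted p = 0.18) and *Slc25a13* (limma adjusted p = 0.64), against 7.8% of all genes. The deposited values already carry a ComBat correction across organs. Its part in these organ comparisons, and in the changes against T0, was not tested. The milder values of *Slc25a3* in spleen and liver did not pass the F-test.

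In the lymph nodes no carrier was called, and most sgRNAs were at the shared lowest value. Shared lowest values made up 75.3% of member sgRNA values and 73.4% of those of all sgRNAs, against 10% and 11.4% outside the lymph nodes. With limma, 0 carriers and 0% of all genes were called in either direction in the 4 comparisons with T0. At an unadjusted p under 0.05, the carriers with a lower level were *Slc25a3* in draining nodes (−2.61) and nondraining nodes (−2.14) under anti-PD-1, and those with a higher one were *Slc25a11* (4.60) and *Slc25a5* (2.53) in draining nodes under anti-PD-1. At that threshold 8.57% of all genes were lower and 2.69% higher in draining nodes, and 3.99% lower in nondraining nodes. *Slc25a26* had changes of −1.06 and −0.75 in draining and −1.55 and −1.09 in nondraining nodes under IgG and anti-PD-1. Between anti-PD-1 and IgG in the lymph nodes 0 carriers were called, and in the mean over both kinds of node 0% of genes were lower and 0.0481% higher. The largest such mean difference that had an unadjusted p under 0.05 was that of the glutamate carrier *Slc25a18* (2.24, limma adjusted p = 0.18). It was the 1 carrier higher at that threshold, where 2 were lower, against 6.79 and 4.62% of all genes.

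Enzymes that make or use what the carriers move were taken from a list of 39 genes, of which 36 were in the library. This list, called the enzyme list below, also held the inner membrane carriers *Ucp1*, *Ucp2*, *Ucp3* and *Mpc1*, which enter its counts. In the mean of the 10 groups, 15 of the 36 were depleted, 0 were enriched and 21 were not called, with a median change of −0.52. Over all genes the share depleted was 16.1% and the median −0.14, and the list was drawn up with results of these data known. *Mat2a*, which makes S-adenosylmethionine, changed by −6.12, whereas its regulatory partner *Mat2b* had a value of 0.04. *Ogdh*, of the oxoglutarate dehydrogenase complex, changed by −5.06, while *Pdha1* of the pyruvate dehydrogenase complex (0.15) was not called. Each of the 5 listed ATP synthase subunits was depleted, from *Atp5a1* (−5.12) to *Atp5o* (−2.69).

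Around the uncalled carriers the list was mixed. Of the coenzyme A enzymes, *Ppcs* (−4.89), *Ppcdc* (−3.80) and *Coasy* (−3.17) were depleted, and *Pank1*, *Pank2* and *Pank3* were not. The malate-aspartate shuttle enzymes *Got1* (−0.03), *Got2* (−0.29), *Mdh1* (−0.17) and *Mdh2* (0.21) were not called, and neither were *Cs* (0.37) and *Acly* (−1.04). *Fech* and *Nfs1*, of haem and iron-sulfur cluster synthesis in the matrix, were depleted by −4.74 and −4.59. *Gss* (−2.34) and *Gclc* (−1.90) of glutathione synthesis and *Nampt* (−3.98) of NAD synthesis were depleted too. The inner membrane carriers of the list, *Ucp1*, *Ucp2*, *Ucp3* and *Mpc1*, had values from −0.32 to 0.32 and were not called.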

How the data were processed

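The authors deposited 1 signal per sgRNA and library, made from MAGeCK read counts by normalization to nontargeting sgRNAs and a ComBat batch correction across organs. Since these steps left fractional values, count models could not be used, the depth is unknown, and no counting interval or detection limit is given. No value column was left unmatched to a sample (0). No genome build is given in the sources used here, so no coordinates are printed.

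From the signal, log2(value + 1) was taken and centred on the mean of the 250 nontargeting sgRNAs of the library, then averaged over the 5 sgRNAs of a gene. limma 3.58.1 in R 4.3.3 fitted 1 mean per group, over T0 and the 26 organ libraries outside the lymph nodes, and separately over T0 and the 12 lymph node libraries. Each group was compared with T0, alone and as an equally weighted mean, anti-PD-1 with IgG, and the organs with each other. Adjusted p-values are Benjamini-Hochberg over 2078 genes or 10640 sgRNAs within a comparison. The test of the treatment difference between organs was added after seeing the data. Coding sequences of the carriers, the longest per gene, were aligned globally in Python 3.11.15 with Biopython 1.88. The scripts were tested on simulated data.

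Of the carrier and enzyme genes in the library, 4 are not reported here and enter no count of carriers or listed enzymes, but all genes entered the fits. The members, the role classes and the enzyme list were chosen with earlier results of these data known. Named with statistics are carriers called in the mean of the 10 groups or in any comparison, the 8 largest decreases and the largest increases there (4 were above 0), and their close relatives. The replicate numbers were checked for pairing: they paired neither T0 with organs nor IgG with anti-PD-1, whereas in 7 of 9 pairs of organs of the same treatment outside the lymph nodes all 3 numbers had correlations over 0.1. Alternatives tried were a pseudocount of 10, the sgRNA median in place of the mean, other centrings or none, filters on low sgRNAs, shared lowest values set to 0, the replicate block, a random replicate block within treatment (added after seeing the data), all libraries in 1 fit, only T0 and the group compared, and each library left out.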

Additional observations from a re-analysis of the deposited data

Results flagged for a closer look

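The difference between anti-PD-1 and IgG in the lung was past the threshold for *Slc25a1* (−2.92) and *Slc25a22* (−2.06), each a contrast of 3 libraries with 3. These results were picked out because the treatments differed in 1 organ; whether the difference itself varied between organs was tested and gave limma adjusted p-values of 0.80 for *Slc25a1* and 0.999 for *Slc25a22*. No group held more than 3 libraries, and single libraries were not tested as outliers.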

How the results depend on the processing

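*Slc25a26* and *Slc25a3* kept negative mean changes in every alternative run, and both calls held in every one except the filter on the 10% of sgRNAs lowest over all libraries. That filter removes sgRNAs that fell and left 1 and 2 of their 5 sgRNAs. It gave 0 depleted carriers in the mean, 3 depletion calls over the 10 comparisons and 0 depleted sgRNAs, with mean changes of −2.27 for *Slc25a26* (limma adjusted p = 0.56) and −2.70 for *Slc25a3* (adjusted p = 0.060), and 0.93 for *Slc25a26* in peritoneal metastases IgG. Leaving out the 10% lowest in T0 instead, a setting added after seeing the data, gave 3 depleted sgRNAs and 1 call in the mean treatment difference, and turned *Slc25a4* to 0.47 and *Slc25a13* to 0.0767. With log2(value + 10) there was 1 treatment call (*Slc25a1*), and *Slc25a21* was at −0.0284. The median of the sgRNAs gave 8 depletion and 2 enrichment calls, and values of 0.23 for *Slc25a2*, 0.34 for *Slc25a4*, -8e-04 for *Slc25a15* and 0.0418 for *Slc25a13*. Centring shifted all genes, whose median change was −0.14 with the nontargeting mean, −0.55 with the nontargeting median, 0.52 with the mean of all sgRNAs and −1.14 with none. The nontargeting median gave 0 enrichment calls, 1 treatment call (*Slc25a1*) and 3 carriers differing between organs, with *Slc25a15* at −0.30 and *Slc25a21* at −0.35. The mean of all sgRNAs gave 1 carrier enriched in the mean (*Slc25a11*, 1.23, adjusted p = 0.027), 4 enrichment calls and 3 depleted sgRNAs, with *Slc25a14* at 0.22, *Slc25a2* at 0.23, *Slc25a4* at 0.41 and *Slc25a13* at 0.41. Setting shared lowest values to 0 gave 3 depleted sgRNAs. No centring gave 6 depleted carriers in the mean, 50 depletion, 0 enrichment and 0 treatment calls, 5 carriers differing between organs and 67 depletion calls in the lymph nodes, with *Slc25a11* at −0.42, *Slc25a1* at −0.57, *Slc25a15* at −0.89 and *Slc25a21* at −0.94. All libraries in 1 fit gave 0 enrichment and 0 treatment calls, 2 depleted sgRNAs, and in the lymph nodes 1 enrichment and 4 treatment calls. Fits of only T0 and the group compared gave 5 enrichment calls and 1 depletion call in the lymph nodes. Apart from the construction of the filters and centrings, the cause was not tested. Correlations between same-numbered libraries were −0.106 to −0.014 between IgG and anti-PD-1 of an organ outside the lymph nodes, −0.356 to 0.149 with T0, and 0.039 to 0.269 between organs of the same treatment outside the lymph nodes. The replicate block moved no count by over 1.5 times and gave 21 depletion calls, among them *Slc25a3* in liver anti-PD-1 (−3.37, adjusted p = 0.038). With the number within a treatment as a random replicate block (limma consensus correlation 0.115), chosen after seeing the data, 2 carriers were depleted in the mean, with 20 depletion calls, 4 depleted sgRNAs, 2 treatment calls and 0 carriers differing between organs; of all genes, 2 in place of 10 were lower and 2 in place of 18 higher under anti-PD-1 in the mean over organs, and 17 in place of 9 differed between organs. With 1 library left out, carriers depleted in the mean ranged from 2 to 3, depletion calls from 16 to 21, enrichment calls from 1 to 2, treatment calls from 1 to 3, calls in the mean treatment difference from 0 to 1 and depleted sgRNAs from 1 (without T0 replicate 3; 2 without T0 replicate 1 or 2) to 6, and the other counts stayed at 0. The mean change then ranged from −0.0044 to 0.25 for *Slc25a15* and from −0.0108 to 0.18 for *Slc25a21*. A fit without the only liver anti-PD-1 library has no value for that group.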
